A study of Mus musculus with 24 samples.

Results

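Inguinal white adipose tissue (iWAT), the subcutaneous fat of the groin, was compared by bulk RNA-seq between male wild-type (WT) mice on an omega-3 enriched diet (n3) and male WT mice on an omega-6 enriched diet (n6). The comparison covers all expressed genes: of 35727 genes in the deposited table, 15259 passed a filter on low counts and were tested. It uses 8 of the 24 libraries of the series, 4 on each diet. Both diets drew 60% of calories from fat, and the mice were 18 to 22 weeks old. The other libraries serve as a backdrop: AdL3KO mice (KO) on n3, n6 and a saturated-fat enriched diet (SFA), and WT mice on SFA, again male, of the same ages, with 60% of calories from fat and 4 libraries a group. The title of the series describes the KO as a deletion of LPCAT3. The construct and the promoter behind it, the oils in the diets and the time on them are not stated in the sources at hand. Nothing in the labels says that the libraries of a group came from separate mice, so the p-values measure the spread between these libraries, which may be technical.

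The title speaks of mature adipocytes, whereas the source is labelled iWAT and no protocol describes an isolation of cells. All 20 adipocyte markers were above 0 in the 8 libraries and summed to 46602 to 51203 CPM (counts scaled to library size) on n3, against 43479 to 47461 CPM on n6. Their mean log2 CPM did not overlap, at 9.52 to 9.59 on n3 and 9.29 to 9.43 on n6. Of the 20, 10 were called higher on n3 and 0 lower (median log2 fold change 0.18), and 7 and 3 on the log2(TPM + 1) scale described below. The part of adipocyte RNA in the results below was not tested. The 16 macrophage markers summed to 1295 to 1555 CPM on n3, against 1326 to 1944 CPM on n6, so the libraries also held RNA of other cells. In such bulk RNA, fewer cells of a type and less RNA per cell cannot be told apart. Libraries held 49.1 to 62.1 M estimated counts on n3 and 46.3 to 54.6 M on n6. The mean log2 CPM of 16 B cell markers was 0.57 to 0.79 on n3 and 0.01 to 0.22 on n6, ranges that did not overlap, while in the fit over all 24 libraries 0 of the 16 passed the test by edgeR or DESeq2 and 0 reached an unadjusted p of 0.05. Fitted on only the 8 libraries, edgeR called 6 of the 16 higher on n3 and 1 lower. Summed CPM of these markers did overlap, at 707 to 843 CPM on n3 and 797 to 856 CPM on n6. That sum follows the most abundant markers, and Ebf1 is in both the B cell and the adipocyte list. It is therefore a poor measure of B cells. Of 18 endothelial, 11 mast cell and 13 tested epithelium markers, 0 were called by edgeR over the 24 libraries, with 0, 1 and 0 at an unadjusted p of 0.05 and 0, 0 and 2 called by DESeq2. Among the n6 libraries, replicate 4 stood nearest to n3, with the lowest n6 value for 66.2% of the genes called lower on n3. Library codes begin with C on n3 and B on n6, and a batch that follows those letters cannot be told apart from the diet.

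Omega-3 and omega-6 polyunsaturated fatty acids are both essential, cannot be converted into each other by mammals, and compete for the same desaturases, acyltransferases and oxygenases. In liver, dietary polyunsaturated fat is known to hold back processing and activity of SREBP-1, the transcription factor that drives fatty acid synthesis, and omega-3 fats are also ligands of PPAR alpha and of the receptor FFAR4. White fat stores triglyceride, makes some fatty acid itself from glucose and acetate, and in obesity gathers lipid-laden macrophages.

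Between n3 and n6, 2813 genes (18.4% of those tested) passed an adjusted p of 0.05 in WT. Of these, 1499 (9.82%) were higher on n3 and 1314 (8.61%) were lower. Most differences were modest: 580 genes (3.8%) differed at least 1.5-fold, 265 higher (1.74%) and 315 lower (2.06%), and 196 (1.28%) at least 2-fold, 92 higher (0.603%) and 104 lower (0.682%). The values of the 4 n3 and 4 n6 libraries did not overlap for 3528 genes (23.1%). The share of calls that were higher depends on the unit, because on the log2(TPM + 1) scale, which divides by transcript length and gives each library the same sum, 577 genes were higher and 3324 lower, with a median over all tested genes of -0.09, against 0.01 on the count scale. With a pseudocount of 0.1 that shift was -0.11 (587 higher, 3124 lower). Called genes rarely turned round: 1801 were called in the same direction on both scales and 2 in opposite directions. Directions below are on the count scale, and the TPM count is added for some of the lists. Such TPM counts stand beside 577 higher and 3324 lower of the 15259 tested genes.

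The clearest group was de novo lipogenesis, the making of fatty acids from acetyl-CoA. Of 18 tested members, 15 were higher on n3 and 0 lower (median log2 fold change 0.63, against 0.01 over all tested genes), and each of the 15 had n3 and n6 values that did not overlap. DESeq2 gave the same counts for this list and the next, and 0 members of either were lower at an unadjusted p of 0.05. The steps that supply acetyl-CoA and reducing power stood at the top. Acss2, which activates acetate in the cytosol, had 346, 330.4, 334 and 302 CPM on n3, against 119, 114, 125 and 111 CPM on n6 (log2 fold change 1.49 ± 0.08, adjusted p = 6.25e-11; the value after ± is the standard error). All 4 n3 libraries were well above all 4 n6 libraries, and the SFA libraries averaged 363 ± 53.2 CPM (SD, n = 4), near n3. Slc25a1, the mitochondrial citrate carrier, averaged 615 ± 13.5 CPM on n3 and 283 ± 14.4 CPM on n6 (log2 fold change 1.12 ± 0.08, adjusted p = 3.60e-09). Malic enzyme Me1, a source of NADPH, averaged 1326 ± 56.6 CPM on n3 and 676 ± 26.3 CPM on n6 (log2 fold change 0.97 ± 0.07, adjusted p = 3.49e-09). ATP citrate lyase Acly, which turns that citrate into acetyl-CoA, had the smaller log2 fold change of 0.59 (adjusted p = 7.63e-07).

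Fatty acid chain building followed the same direction. Fasn, the fatty acid synthase, had 4044, 4233, 4059.6 and 3668 CPM on n3, against 2138, 2130.5, 2202 and 2305 CPM on n6 (log2 fold change 0.87 ± 0.07, adjusted p = 3.74e-08). The lowest n3 library was still far above the highest n6 library, and SFA averaged 4194 ± 508 CPM. Acetyl-CoA carboxylases Acaca and Acacb, the committing step, differed by 0.65 and 0.98 in log2 fold change (adjusted p = 7.51e-07 and 3.93e-08). Elovl6, which lengthens palmitate, averaged 50.7 ± 1.72 CPM on n3 and 26.4 ± 1.21 CPM on n6 (log2 fold change 0.94 ± 0.07, adjusted p = 5.72e-09).

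Stearoyl-CoA desaturases, which make monounsaturated fat, set SFA apart from n3. Scd1 had 34054, 31411, 29849 and 30335 CPM on n3, against 18600.0, 24603, 18299 and 21032 CPM on n6 (log2 fold change 0.61 ± 0.08, adjusted p = 8.31e-06). The groups did not overlap, and SFA was higher than either at 52752 ± 2099.5 CPM (n3 against SFA: log2 fold change -0.75, adjusted p = 2.5e-05; this contrast shares the n3 libraries with the main one). Scd1 also had the largest difference in mean CPM of any called gene. Its paralogue Scd2 averaged 1337 ± 40.1 CPM on n3 and 721 ± 30.5 CPM on n6 (log2 fold change 0.89 ± 0.07, adjusted p = 5.72e-09), and 1709.9 ± 176 CPM on SFA.

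Among the regulators, Srebf1 itself was higher on n3 at 261 ± 12.3 CPM, against 187 ± 14.8 CPM on n6 (log2 fold change 0.48 ± 0.07, adjusted p = 4.09e-05). Insig1, the endoplasmic reticulum anchor that retains SREBP when sterols are plentiful and is itself an SREBP target, had 658, 604, 632 and 559 CPM on n3, against 228, 244, 281 and 235 CPM on n6 (log2 fold change 1.31 ± 0.09, adjusted p = 1.77e-09). The lowest n3 library was far above the highest n6 library, and SFA averaged 608 ± 89.99 CPM. Mlxipl, which encodes the carbohydrate-sensing factor ChREBP, averaged 51.9 ± 2.69 CPM on n3 and 51.9 ± 2.43 CPM on n6 (adjusted p = 0.993). Thrsp and Elovl5 were the other members that were not called (log2 fold change -0.23 and 0.04, adjusted p = 0.235 and 0.585). On the TPM scale Thrsp was called lower and the 15 higher calls were as many as before.

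**Figure D1:**
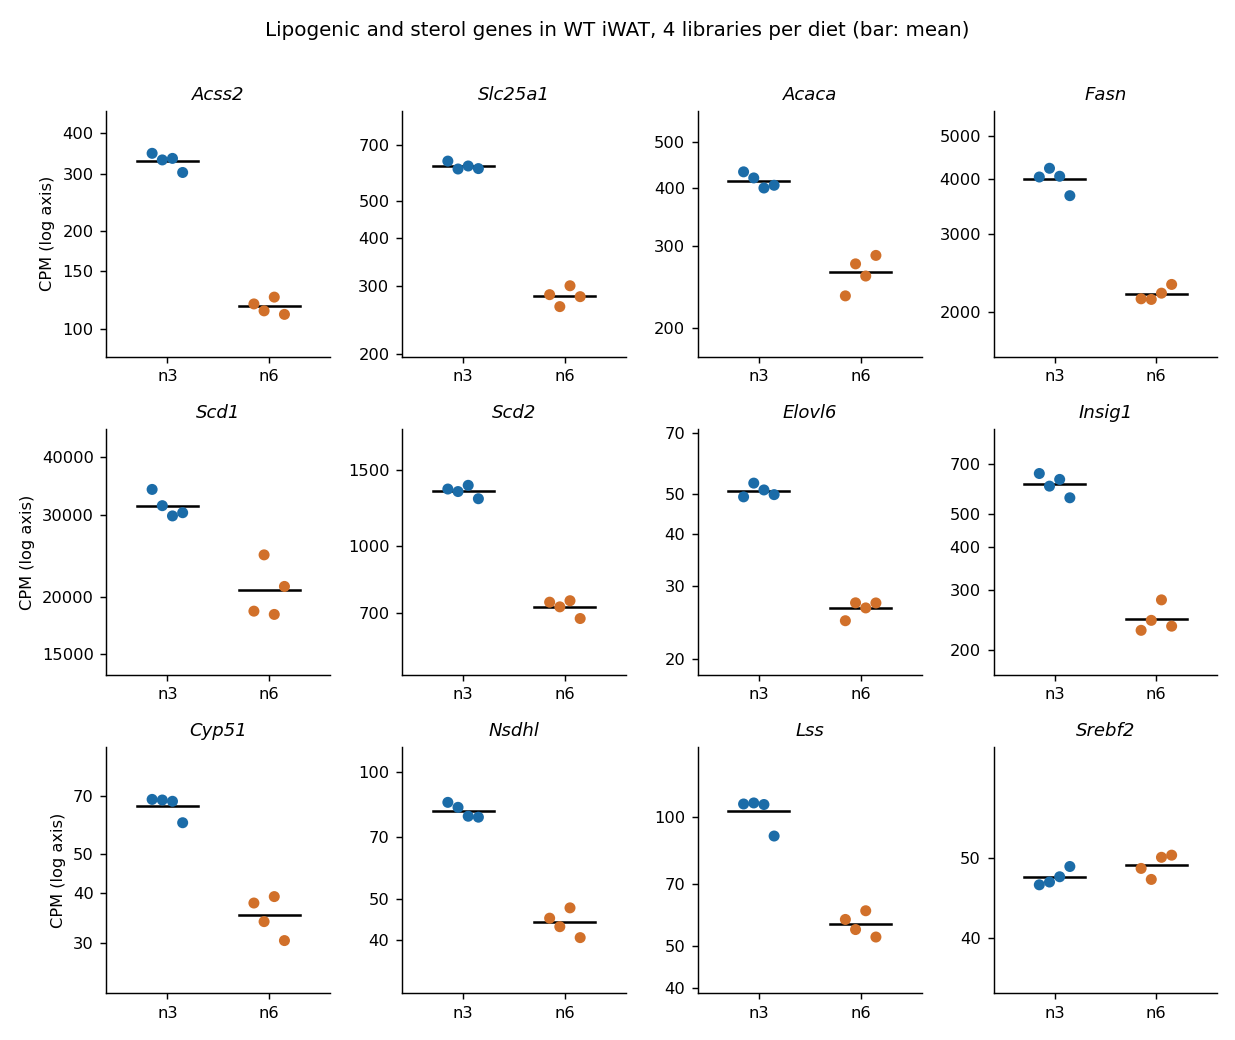
CPM of 12 lipogenic and sterol genes (log axis) in each WT library, with n3 left of n6 in each panel; points are libraries and bars the group means (n = 4 each). All 4 n3 points lie above all 4 n6 points in every panel but that of Srebf2, where the groups overlap.

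Cholesterol synthesis, run by the related factor SREBP-2, showed the same pattern. Of 24 tested members, 19 were higher on n3 and 0 lower (median log2 fold change 0.53), with 16 higher on the TPM scale, and leaving out any of the 8 libraries kept the count at 19. Late steps of the pathway led. Cyp51, the lanosterol demethylase, had 68.5, 68.2, 67.7 and 59.9 CPM on n3, against 37.8, 33.97, 39.2 and 30.5 CPM on n6 (log2 fold change 0.90 ± 0.08, adjusted p = 1.17e-07). Nsdhl and Lss, which act on either side of it, averaged 80.9 ± 3.15 and 103 ± 8.55 CPM on n3, against 44.1 ± 3.03 and 56.3 ± 3.48 CPM on n6 (log2 fold change 0.87 and 0.87; adjusted p = 5.81e-09 and 4.04e-08). No n6 library reached an n3 library for any of the 3. Fdps, which makes farnesyl diphosphate, differed by 0.77 (adjusted p = 3.93e-08), and Hmgcs1, at the entry of the pathway, by 0.45 (adjusted p = 3.23e-05).

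Srebf2, which encodes SREBP-2 itself, was among the members that were not called. It had 46.4, 46.7, 47.4 and 48.8 CPM on n3, against 48.5, 47.1, 50.05 and 50.4 CPM on n6 (log2 fold change -0.05 ± 0.05, adjusted p = 0.491). The 2 groups overlapped, and SFA averaged 47.5 ± 1.01 CPM.

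Sterol pathway promoters often hold a CCAAT box, the site of the factor NF-Y, which is known to act beside SREBP. The letters CCAAT, on either strand, were looked for in the 250 bases before each gene's start (RefSeq, GRCm38.p6; any promoter of a gene counts). They stood in 15 of 16 cholesterol synthesis genes with a promoter in the table (93.8%), in 11 of 16 lipogenic genes (68.8%) and in 40.2% of 11504 tested genes. The share was 41.9% of genes called higher and 40.4% of genes called lower, and 88.2% (15 of 17) of the proliferation genes, which fell on n3 (below). A sterol response element spelled TCACNCCAC stood in 1.22% of genes called higher and 1.21% of all tested. It stood in 1 of 16 cholesterol synthesis genes and in 1 of 16 lipogenic genes. The following windows show these letters in Insig1, Nsdhl and Hmgcs1, which rose, and in Pcna, which fell. Insig1, Nsdhl and Pcna were picked from called list members that hold the box, and Hmgcs1 was chosen after its values were seen. Each is written 5′ to 3′ on the gene's own strand, with CCAAT (read as ATTGG on the opposite strand) and TCACNCCAC in capitals. The 2 motifs do not overlap there, and a match is a description of letters, not a binding site.
Insig1, chr5:28071162-28071411 (+): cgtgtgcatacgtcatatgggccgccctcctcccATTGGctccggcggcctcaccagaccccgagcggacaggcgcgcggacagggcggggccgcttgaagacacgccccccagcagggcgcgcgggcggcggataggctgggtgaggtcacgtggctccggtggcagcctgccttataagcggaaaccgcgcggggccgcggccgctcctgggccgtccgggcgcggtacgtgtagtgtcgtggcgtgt
Nsdhl, chrX:72918271-72918520 (+): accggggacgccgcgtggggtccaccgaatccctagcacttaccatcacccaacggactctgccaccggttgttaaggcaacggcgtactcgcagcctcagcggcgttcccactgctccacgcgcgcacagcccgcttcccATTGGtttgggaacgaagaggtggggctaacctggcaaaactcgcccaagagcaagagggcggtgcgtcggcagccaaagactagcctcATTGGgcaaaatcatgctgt
Hmgcs1, chr13:119690101-119690350 (+): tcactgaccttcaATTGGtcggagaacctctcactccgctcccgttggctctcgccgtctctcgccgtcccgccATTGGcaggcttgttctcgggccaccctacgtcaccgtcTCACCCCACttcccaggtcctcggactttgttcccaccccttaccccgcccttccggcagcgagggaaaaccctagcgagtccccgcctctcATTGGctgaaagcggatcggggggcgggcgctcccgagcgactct
Pcna, chr2:132253181-132253430 (-): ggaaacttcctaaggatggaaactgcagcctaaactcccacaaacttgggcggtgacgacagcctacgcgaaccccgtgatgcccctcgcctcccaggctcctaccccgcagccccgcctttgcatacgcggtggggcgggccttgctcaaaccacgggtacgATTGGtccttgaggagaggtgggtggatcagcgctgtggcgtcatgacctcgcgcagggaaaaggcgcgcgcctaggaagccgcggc
Insig1 and Pcna hold 1 CCAAT box each, Nsdhl holds 2 and Hmgcs1 holds 3 with 1 sterol response element. As Insig1, Nsdhl and Pcna were picked for holding the box, these windows do not show how common it is.

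Lpcat3, the enzyme removed in KO and one that prefers to place polyunsaturated chains on lysophospholipids, was itself higher on n3. It had 114, 113, 119 and 112 CPM on n3, against 69.9, 69.4, 72.9 and 66.02 CPM on n6 (log2 fold change 0.72 ± 0.06, adjusted p = 3.74e-08). The groups did not overlap, and SFA averaged 117 ± 13.5 CPM, near n3. Enzymes of phospholipid remodelling, counted with Lpcat3 among them, went both ways, with 4 of 21 higher and 3 lower (median -0.01), and 4 and 5 on the TPM scale. The lysoplasmalogenase Tmem86a rose (log2 fold change 0.57 ± 0.07, adjusted p = 7.08e-06), while the acyltransferase Lpgat1 averaged 1616 ± 89.8 CPM on n3 and 2088 ± 70.4 CPM on n6 (log2 fold change -0.37 ± 0.07, adjusted p = 3.92e-04). The lysosomal phospholipase Pla2g15 also fell (log2 fold change -0.31 ± 0.07, adjusted p = 0.00383).

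The desaturases that make long polyunsaturated fats were not called. Fads1 averaged 38.6 ± 1.42 CPM on n3 and 40.4 ± 3.19 CPM on n6 (adjusted p = 0.622), and Fads2 averaged 12.2 ± 1.28 CPM on n3 and 10.3 ± 1.29 CPM on n6 (adjusted p = 0.0666). The members of that list that rose were general elongation enzymes, Hsd17b12 (log2 fold change 0.77, adjusted p = 9.06e-08) and Tecr (0.68, adjusted p = 2.15e-08), and Elovl3, named again below.

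Triglyceride storage and its release both held higher members. In the list of triglyceride synthesis and lipid droplets 11 of 20 were higher and 1 lower, and 8 and 4 on the TPM scale. Agpat2, which makes phosphatidic acid on the way to triglyceride, had 680.3, 612, 618 and 638 CPM on n3, against 314, 284, 302 and 316 CPM on n6 (log2 fold change 1.07 ± 0.08, adjusted p = 3.49e-09). Every n3 library was far above every n6 library, with SFA at 640.0 ± 81.01 CPM. Dgat1 rose modestly (log2 fold change 0.38 ± 0.06, adjusted p = 5.63e-05), while Dgat2, the other enzyme of the last step, averaged 2196 ± 149.9 CPM on n3 and 2222 ± 110.3 CPM on n6 (adjusted p = 0.882). The coat proteins Plin5 and Plin4 were higher (log2 fold change 1.01 and 0.30; adjusted p = 2.02e-05 and 0.01), Plin4 on the count scale only, and Cidec had -0.06 (adjusted p = 0.702).

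Of 17 lipolysis genes, 11 were higher on n3 and 0 lower (median 0.30), and 9 and 1 on the TPM scale. They were receptors and brakes as much as lipases. Ptger3, the prostaglandin E2 receptor that restrains lipolysis, had 290.4, 269.7, 255 and 261 CPM on n3, against 161, 134, 147 and 132 CPM on n6 (log2 fold change 0.91 ± 0.06, adjusted p = 2.62e-09). The separation was complete, and SFA averaged 258 ± 12.7 CPM. The adrenergic receptor Adrb3, which starts lipolysis, rose by 0.54 (adjusted p = 0.00416), and G0s2, the inhibitor of adipose triglyceride lipase, by 0.49 (adjusted p = 0.00321). The main lipases themselves, Pnpla2 and Lipe, had log2 fold changes of 0.21 and 0.14 (adjusted p = 0.105 and 0.191).

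In fatty acid uptake 7 of 20 members were higher and 2 lower, with a median that was 0.11 on the count scale and -0.03 on the TPM scale. Fabp4, the abundant adipocyte carrier, had 10532, 11953, 11201 and 11280.0 CPM on n3, against 8607, 9479, 8736 and 8738 CPM on n6 (log2 fold change 0.34 ± 0.07, adjusted p = 0.00191). The acyl-CoA synthetases Acsl1 and Acsl3 rose (log2 fold change 0.53 and 0.92; adjusted p = 4.60e-06 and 1.62e-07), and so did Angptl8, a feeding-induced regulator of lipoprotein lipase, at 11.4 ± 1.88 CPM on n3 and 5.13 ± 1.18 CPM on n6 (log2 fold change 1.16 ± 0.23, adjusted p = 0.00123). Lipoprotein lipase itself, Lpl, was at 11199 ± 457 CPM on n3 and 11446 ± 213 CPM on n6 (adjusted p = 0.744).

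Genes that burn fatty acids rose beside those that make them. Of 25 genes of mitochondrial beta-oxidation, 19 were higher on n3 and 0 lower (median 0.28), with 17 higher on the TPM scale. The carnitine shuttle was represented by Cpt2, at 134, 129, 130.5 and 132 CPM on n3, against 94.9, 93.99, 95.2 and 97.6 CPM on n6 (log2 fold change 0.46 ± 0.06, adjusted p = 8.31e-06), and by the carrier Slc25a20 (log2 fold change 0.43 ± 0.06, adjusted p = 7.89e-06). Both separated the diets completely with a small spread. Ucp3 and Pdk4, known PPAR targets, rose by 0.71 and 0.54 (adjusted p = 1.31e-05 and 0.0157), Pdk4 not without n3 replicate 4 (adjusted p = 0.0556). In the peroxisomal list, Pex11a, which acts in the division of peroxisomes, and catalase Cat rose by 0.43 and 0.36 (adjusted p = 6.34e-06 and 1.19e-04). That list had 11 of 24 higher and 1 lower, and 6 and 5 on the TPM scale. On that scale lower calls were the more common over all tested genes (577 higher and 3324 lower of 15259). Ppara was not called (log2 fold change 0.34 ± 0.12, adjusted p = 0.0542).

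Mitochondrial energy genes rose by small amounts. Of 21 genes of the tricarboxylic acid cycle and its entry, 13 were higher and 0 lower, with 9 higher on the TPM scale. Citrate synthase Cs averaged 534 ± 11.3 CPM on n3 and 404 ± 15.3 CPM on n6 (log2 fold change 0.40 ± 0.05, adjusted p = 1.28e-05), and pyruvate carboxylase Pcx 1236 ± 32.2 CPM on n3 and 833 ± 15.7 CPM on n6 (log2 fold change 0.57 ± 0.06, adjusted p = 4.24e-07). All 35 tested nuclear genes of complex I had a positive log2 fold change, from 0.12 to 0.42, and 22 were called. For complexes III to V, 25 of 34 were called higher and 1 lower. These depend on the unit, since 9 and 9 were called higher on the TPM scale and as few as 14 and 15 without n6 replicate 3. On the TPM scale the medians were 0.06 and 0.07, still above the -0.09 of all genes.

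Transcripts of the mitochondrial genome made up 4.26% to 4.77% of counts on n3 and 2.96% to 3.55% on n6. Of the 13 messages, 10 were called higher (median log2 fold change 0.56). The cytochrome oxidase subunit mt-Co1 had 15741, 15580.0, 15848 and 16928 CPM on n3, against 10136, 11360.0, 10976 and 12291 CPM on n6 (log2 fold change 0.52 ± 0.08, adjusted p = 9.28e-05). The complex I subunit mt-Nd2 averaged 4520.0 ± 222 CPM on n3 and 2751 ± 122 CPM on n6 (log2 fold change 0.72 ± 0.07, adjusted p = 2.02e-07). Near-identical nuclear copies of these genes exist, so the division of reads between them by the authors' counting is uncertain. The mitochondrial share did not overlap between the diets, and its part in the other results was not tested.

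The thermogenic list, genes of heat-producing beige and brown adipocytes, had 12 of 20 members higher and 1 lower (median 0.44), and 9 and 1 on the TPM scale. Ucp1, the uncoupling protein that makes heat, was scarce, at 0.889, 0.476, 0.701 and 1.11 CPM on n3, against 0.0179, 0.119, 0.0363 and 0.512 CPM on n6 (log2 fold change 2.23 ± 0.57, adjusted p = 0.00832). The n6 library of replicate 4 lay above 1 of the n3 libraries, and SFA averaged 0.504 ± 0.264 CPM. Cidea had 14.7, 12.6, 13.7 and 16.2 CPM on n3, against 3.58, 4.28, 3.70 and 7.78 CPM on n6 (log2 fold change 1.57 ± 0.21, adjusted p = 3.11e-05), with n6 replicate 4 again the highest of its group. Elovl3, Cox8b and Dio2, classical cold-induced genes, rose by 1.88, 1.06 and 1.03 (adjusted p = 3.50e-04, 4.02e-04 and 0.00317), and the beige regulator Prdm16 by 0.47 (adjusted p = 0.00433; not called on the TPM scale). Ckb, of the creatine cycle, was the member that fell (log2 fold change -0.42 ± 0.08, adjusted p = 7.09e-04).

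**Figure D2:**
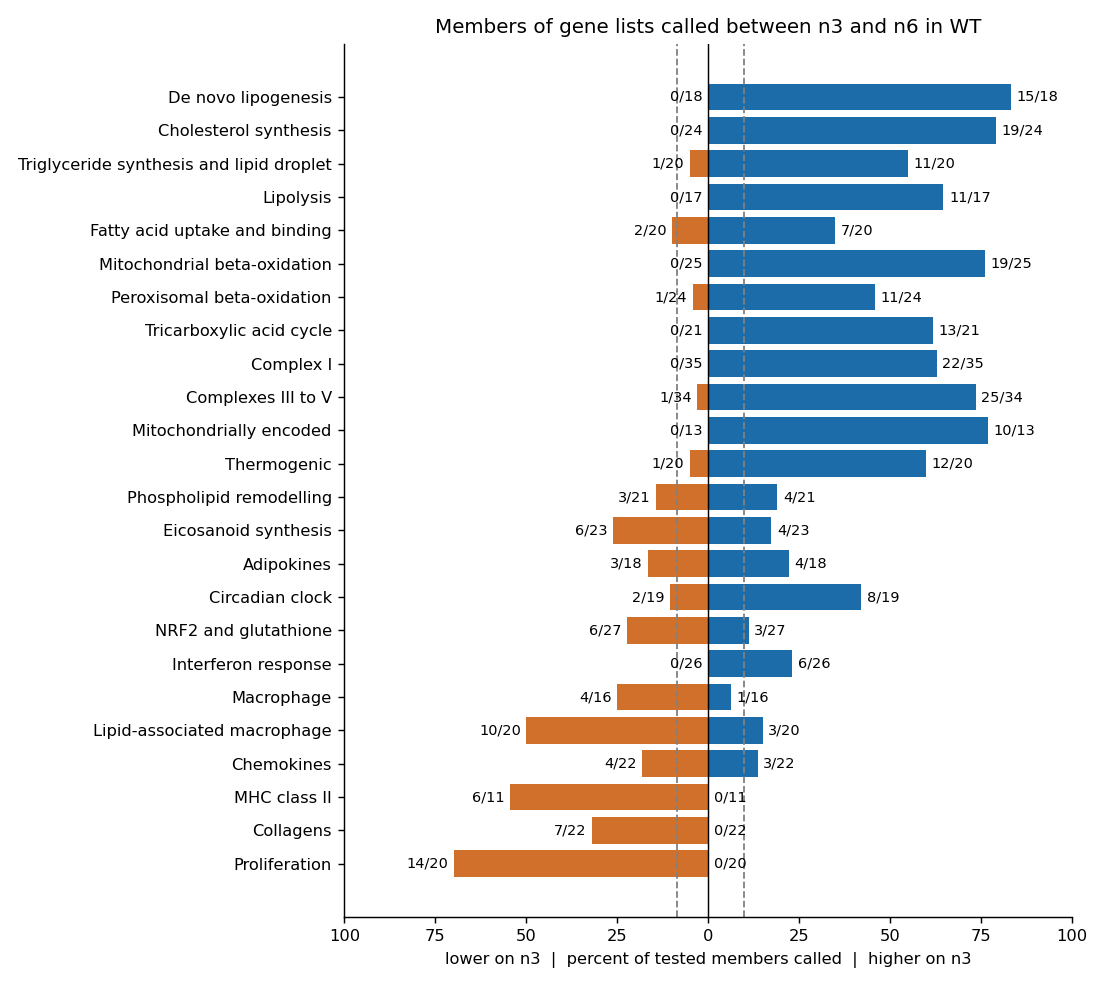
Percent of tested members of 24 gene lists that were called higher (right) or lower (left) on n3 than on n6 in WT, with counts at the bar ends; dashed lines mark the 9.82% higher and 8.61% lower over all tested genes. Lipogenic, sterol and mitochondrial lists lie to the right, and proliferation and MHC class II to the left.

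The 15 largest rises by the naming rule mixed metabolic genes with others of less familiar roles in fat. The largest fold was that of Tmem132b, a membrane protein, with 20.5, 7.91, 5.61 and 14.9 CPM on n3, against 1.27, 1.02, 1.67 and 2.17 CPM on n6 (log2 fold change 3.00 ± 0.49, adjusted p = 2.53e-04). The n3 libraries did not reach down to n6, but they spread widely. Parm1 was far more even, with 67.3, 55.97, 62.9 and 60.3 CPM on n3, against 18.1, 17.8, 21.3 and 18.9 CPM on n6 (log2 fold change 1.70 ± 0.12, adjusted p = 1.02e-08). Hephl1, a copper ferroxidase of the hephaestin family, averaged 19.3 ± 2.20 CPM on n3 and 5.85 ± 1.90 CPM on n6 (log2 fold change 1.72 ± 0.17, adjusted p = 7.84e-07).

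The proteoglycan gene Ncan averaged 103 ± 17.3 CPM on n3 and 37.1 ± 1.39 CPM on n6 (log2 fold change 1.47 ± 0.13, adjusted p = 8.18e-08), and Chchd10, a protein of the mitochondrial intermembrane space, 44.99 ± 3.62 CPM on n3 and 16.8 ± 1.91 CPM on n6 (log2 fold change 1.42 ± 0.12, adjusted p = 8.18e-08). Egln3, an oxygen-sensing prolyl hydroxylase, rose by 1.39 (adjusted p = 1.01e-06). Gsg1l, Cxadr, Hebp2, Prune2, Adh6b and Rwdd3 were among the 15 with Acss2 and Cidea, at log2 fold changes of 1.77, 1.76, 1.65, 1.47, 1.49 and 1.41. The SFA mean was nearer to n3 than to n6 for 14 of the 15.

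The 15 largest falls by the naming rule held acute-phase, clotting and myeloid genes. Some called genes outside the rule's limits on level or overlap fell further, among them Cps1, Fgg, Apoh and Ahsg. These had log2 fold changes of -5.14, -4.465, -3.68 and -3.23 in WT, against 0.23, 0.93, 1.04 and 0.70 in KO. Each of them had a mean log2 CPM under 1 or n3 and n6 values that overlapped. Whether a few libraries carried these falls, and the part of RNA from other cells in them, was not tested. Hspb7, a small heat shock protein of heart and muscle, had 4.82, 6.61, 4.42 and 4.45 CPM on n3, against 29.4, 34.1, 18.3 and 12.7 CPM on n6 (log2 fold change -2.22 ± 0.26, adjusted p = 5.24e-06). The groups did not overlap, n6 replicate 4 was the nearest to n3, and SFA averaged 8.43 ± 2.16 CPM. Saa3, an acute-phase serum amyloid made by adipocytes and macrophages, had 12.1, 18.4, 13.1 and 12.6 CPM on n3, against 49.2, 50.1, 50.8 and 24.1 CPM on n6 (log2 fold change -1.63 ± 0.19, adjusted p = 4.22e-06), with n6 replicate 4 the nearest to n3. The pentraxin Ptx3, an innate pattern receptor, averaged 2.20 ± 0.320 CPM on n3 and 7.71 ± 1.49 CPM on n6 (log2 fold change -1.81 ± 0.21, adjusted p = 2.48e-06). The secreted phospholipase Pla2g5 averaged 2.80 ± 0.275 CPM on n3 and 7.71 ± 0.985 CPM on n6 (log2 fold change -1.46 ± 0.15, adjusted p = 4.29e-07). Gpr50, an orphan receptor related to the melatonin receptors, fell (log2 fold change -1.88 ± 0.23, adjusted p = 6.07e-06). The coagulation factors F7 and F10 fell together, at 3.27 ± 0.480 and 1.65 ± 0.154 CPM on n3, against 8.37 ± 2.22 and 3.84 ± 1.28 CPM on n6 (adjusted p = 6.67e-05 and 1.56e-04).

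Of the others, Ear2, an eosinophil-associated ribonuclease, Hif3a, a hypoxia-inducible factor, and the glutamate carboxypeptidase Folh1 had log2 fold changes of -1.21, -1.32 and -1.24 (adjusted p = 1.80e-04, 0.00907 and 3.02e-05). Gabrr2, Vsig8, Dhrs9, Tm4sf19 and the clock gene Npas2 complete the 15, at log2 fold changes of -1.29, -1.25, -1.23, -1.20 and -1.44. In all 15 falls the SFA mean was nearer to n3 than to n6 (15 of 15). The n3 and n6 differences from SFA share libraries with the comparison of n3 with n6.

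**Figure D3:**
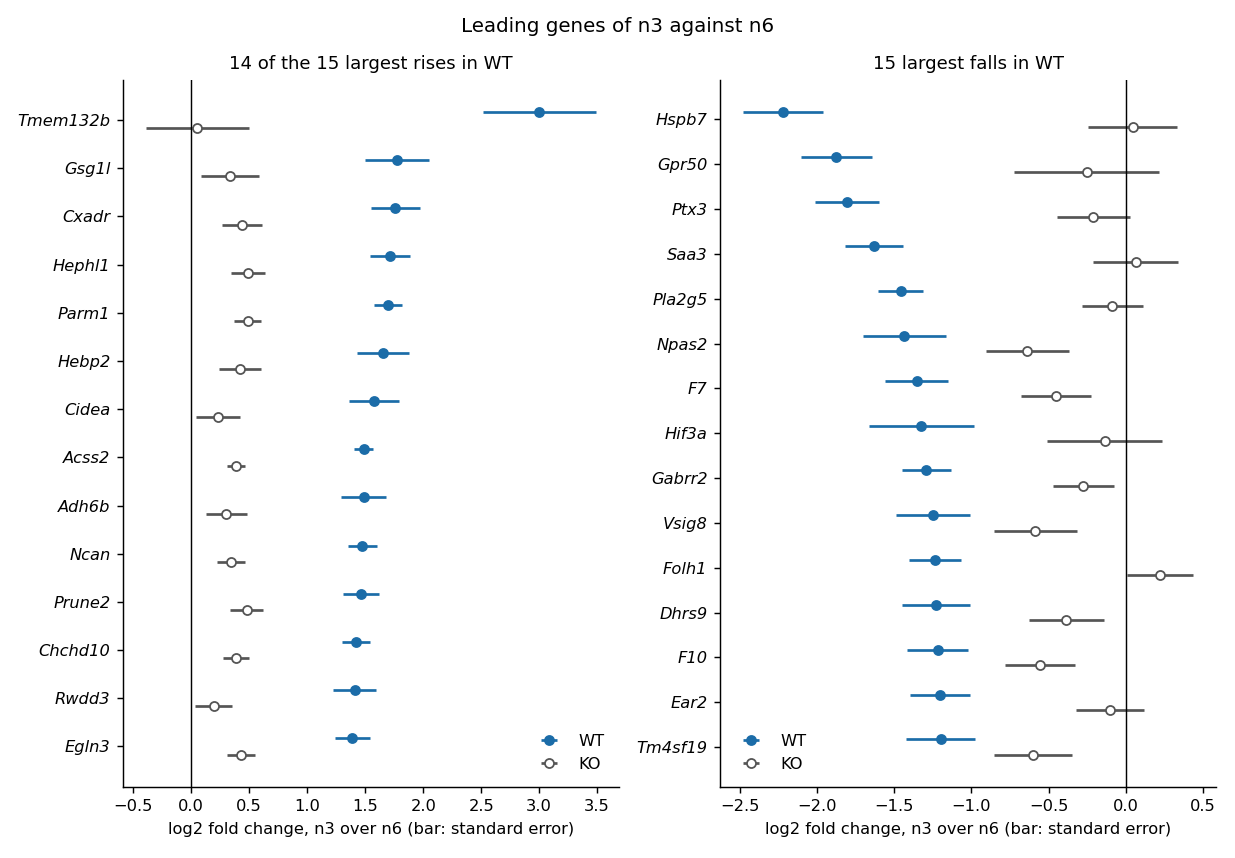
Log2 fold change (n3 over n6) with its standard error in WT and KO. Shown are 14 of the 15 largest rises and the 15 largest falls in WT by the naming rule. For each gene WT values (filled) are drawn above KO values (open). The KO points lie nearer to 0 than the WT points for all 29 genes, which were chosen for their size in WT.

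Lipid-associated macrophages are the cells that clear lipid from failing adipocytes in obese fat. Of 20 of their markers, 3 were higher on n3 and 10 lower. Gpnmb, a glycoprotein of such cells, had 78.5, 90.9, 91.4 and 124 CPM on n3, against 251, 193, 217 and 128 CPM on n6 (log2 fold change -1.04 ± 0.22, adjusted p = 0.00262). Itgax, the integrin CD11c, had 21.5, 22.6, 21.7 and 23.1 CPM on n3, against 53.1, 40.2, 46.5 and 32.6 CPM on n6 (log2 fold change -0.95 ± 0.14, adjusted p = 7.83e-05). For both genes the groups did not overlap and n6 replicate 4 was the lowest of its group. The proton pump subunit Atp6v0d2 and the protease Mmp12 fell too (log2 fold change -0.99 and -0.76; adjusted p = 0.00334 and 0.0102). The receptor Trem2 averaged 14.9 ± 1.86 CPM on n3 and 23.7 ± 5.71 CPM on n6, with groups that overlapped (log2 fold change -0.67 ± 0.23, adjusted p = 0.0461), and it was not called when any 1 of 7 of the 8 libraries was left out (adjusted p up to 0.154). The members that rose, Fabp5, Ctsd and Plin2, are made by adipocytes as well (log2 fold change 0.51, 0.37 and 0.31; adjusted p = 1.44e-05, 1.03e-04 and 0.00336).

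General macrophage markers gave 1 of 16 higher and 4 lower. The lower calls numbered 2 with only the 8 libraries fitted, 6 without n6 replicate 4, and 2 without any 1 of n3 replicates 1 and 3 and n6 replicates 1, 2 and 3. Itgam, the integrin CD11b, fell (log2 fold change -0.54 ± 0.13, adjusted p = 0.00628), and so did Cd68 (log2 fold change -0.50, adjusted p = 0.0263, and up to 0.108 with 1 library left out), while Adgre1, which encodes F4/80, had -0.40 (adjusted p = 0.0855) and Csf1r -0.13 (adjusted p = 0.504). Antigen presentation by MHC class II had 6 of 11 members lower and 0 higher (median -0.37). H2-DMa, a peptide-exchange chain, averaged 21.4 ± 1.26 CPM on n3 and 29.1 ± 3.34 CPM on n6 (log2 fold change -0.45 ± 0.10, adjusted p = 0.00441). These calls rest on the full set of libraries: 1 of them stood without n3 replicate 1 or without n6 replicate 1, and 6 without n6 replicate 4, and 3 with the cell type covariates named below.

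Of 22 tested chemokine genes, 3 were higher on n3 and 4 lower (median -0.05), and 2 and 6 on the TPM scale. Ccl2, which draws monocytes, had 5.98, 6.80, 7.06 and 6.43 CPM on n3, against 11.5, 10.8, 14.1 and 12.5 CPM on n6 (log2 fold change -0.90 ± 0.12, adjusted p = 2.43e-05). The ranges were well apart, and SFA averaged 6.67 ± 0.907 CPM. Its receptor Ccr2 averaged 56.9 ± 7.78 CPM on n3 and 86.8 ± 12.9 CPM on n6 (log2 fold change -0.61 ± 0.15, adjusted p = 0.00608). S100a8 and Chil3, of neutrophils, monocytes and activated macrophages, fell (log2 fold change -0.84 and -2.40; adjusted p = 1.03e-04 and 2.27e-06), although Chil3 was scarce, at 0.513 ± 0.143 CPM on n3 and 2.73 ± 0.401 CPM on n6. Of the 9 tested neutrophil and monocyte markers, 3 were lower and 0 higher, while the median was 0.29. Il1rn, the interleukin 1 antagonist, averaged 7.85 ± 0.895 CPM on n3 and 15.6 ± 2.37 CPM on n6 (log2 fold change -0.99 ± 0.18, adjusted p = 4.55e-04). In the opposite direction, Cxcl9, an interferon-induced chemokine for T cells, averaged 49.6 ± 9.15 CPM on n3 and 29.6 ± 1.43 CPM on n6 (log2 fold change 0.74 ± 0.16, adjusted p = 0.00208).

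Interferon-response genes gave 6 of 26 higher and 0 lower, with a positive median of 0.23. Ifi27l2a, induced by type I interferon, had 1032, 1069, 963 and 1102 CPM on n3, against 616, 663, 589 and 759 CPM on n6 (log2 fold change 0.67 ± 0.11, adjusted p = 3.08e-04), and the transcription factor Irf1 rose by 0.34 (adjusted p = 0.00344; not called on the TPM scale). Of the 26, 2 were called on the TPM scale, 2 with B cell, muscle and epithelium markers as covariates, and 2 without n6 replicate 1. The mean log2 CPM of B cell markers, which also did not overlap between the diets, moved with this list. Their summed CPM, which follows the most abundant markers, overlapped. The part of B cell markers in the result was not tested beyond that covariate fit.

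In the complement system, C4b of the classical pathway rose (log2 fold change 0.32 ± 0.06, adjusted p = 6.64e-04), whereas C3 and Cfb of the alternative pathway averaged 809 ± 50.1 and 421 ± 34.4 CPM on n3, against 1075 ± 178 and 559.8 ± 39.3 CPM on n6 (log2 fold change -0.41 and -0.41; adjusted p = 0.00517 and 1.17e-04). On the TPM scale C4b was not called. Adipsin, Cfd, which activates that pathway, averaged 678 ± 113 CPM on n3 and 978 ± 218 CPM on n6 with overlapping groups (adjusted p = 0.102).

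**Figure D4:**
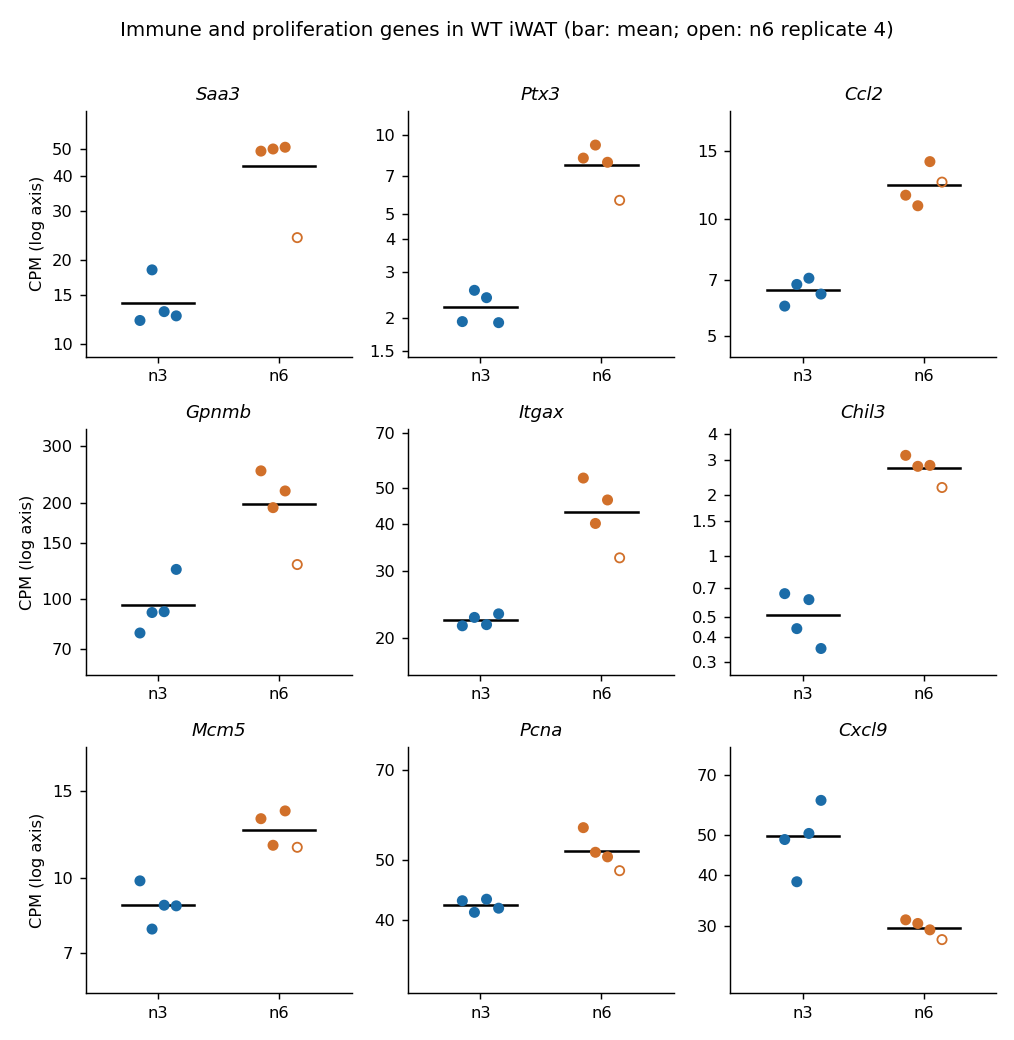
CPM (log axis) of 9 immune and proliferation genes in each WT library, with n3 left of n6; points are libraries, bars group means (n = 4 each), and the open n6 point is replicate 4. For 8 of the 9 genes all n3 points lie below all n6 points, and Cxcl9 is higher on n3.

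Cell division genes fell as a group of small steps. Of 20 proliferation genes, 14 were lower on n3 and 0 higher (median -0.42), and the count was 7 without n6 replicate 3 and 15 without n6 replicate 4. Mcm5, a subunit of the replicative helicase, had 9.85, 7.85, 8.78 and 8.76 CPM on n3, against 13.2, 11.6, 13.7 and 11.5 CPM on n6 (log2 fold change -0.51 ± 0.08, adjusted p = 1.06e-04). Pcna, the sliding clamp, had 43.0, 41.2, 43.2 and 41.8 CPM on n3, against 56.4, 51.5, 50.6 and 48.1 CPM on n6 (log2 fold change -0.29 ± 0.04, adjusted p = 3.48e-05). In both, every n3 library was below every n6 library. The mitotic cyclin Ccnb1 fell (log2 fold change -0.62 ± 0.14, adjusted p = 0.00321), while Cdk1 had -0.02 (adjusted p = 0.901). Of the macrophage markers 4 of 16 were also lower, and of the neutrophil and monocyte markers 3 of 9, and their part in the proliferation result was not tested.

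Collagens leaned the same way, with 7 of 22 lower and 0 higher, 12 lower on the TPM scale and 13 when only the 8 libraries were fitted. Type VI was prominent: Col6a1 and Col6a2 averaged 731 ± 82.99 and 840.2 ± 73.99 CPM on n3, against 1021 ± 64.6 and 1150.5 ± 79.5 CPM on n6 (log2 fold change -0.48 and -0.45; adjusted p = 0.00736 and 6.30e-04). The fibrillar collagens Col1a1 and Col3a1 had log2 fold changes of -0.26 and -0.32 (adjusted p = 0.18 and 0.122). Other matrix proteins and enzymes went both ways, with 4 of 32 higher and 8 lower (median 0.01), and 1 and 12 on the TPM scale. Fibronectin Fn1 and the protease inhibitor Timp1 fell (log2 fold change -0.60 and -0.68, adjusted p = 0.0108 and 0.0128), Timp1 not without n6 replicate 2 (adjusted p = 0.0522). Fmod, named again below, rose (log2 fold change 0.57).

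Secreted signals of fat split. Leptin, Lep, the satiety hormone whose level follows fat mass, had 3562, 4418, 3797 and 3659 CPM on n3, against 5333, 5297, 5112 and 4807 CPM on n6 (log2 fold change -0.41 ± 0.08, adjusted p = 5.96e-04). The groups did not overlap, and SFA averaged 4135 ± 122 CPM. Nrg4, a batokine, rose at 70.95 ± 4.97 CPM on n3, against 43.1 ± 5.46 CPM on n6 (log2 fold change 0.72 ± 0.10, adjusted p = 2.76e-05), as did the retinol carrier Rbp4 (log2 fold change 0.55, adjusted p = 4.96e-05). Adipoq, which encodes adiponectin, had a log2 fold change of 0.14 (adjusted p = 0.245). Insulin signalling was mixed, with 3 of 18 genes higher and 2 lower (median 0.06), and 4 and 7 on the TPM scale. Of the higher ones, Grb14, an inhibitor of the insulin receptor, rose (log2 fold change 0.71 ± 0.07, adjusted p = 6.47e-07), and so did the kinase Akt2 (log2 fold change 0.33 ± 0.05, adjusted p = 5.68e-05). Pparg, the master regulator of adipocytes, averaged 156 ± 11.9 CPM on n3 and 146 ± 8.63 CPM on n6 (adjusted p = 0.364).

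Genes that handle the fatty acids themselves gave mixed results. Of 23 eicosanoid synthesis genes, 4 were higher and 6 lower, and 3 and 10 on the TPM scale. Ephx2, the epoxide hydrolase that acts on epoxides of polyunsaturated fats, averaged 286 ± 13.8 CPM on n3 and 195 ± 16.4 CPM on n6 (log2 fold change 0.55 ± 0.11, adjusted p = 9.06e-04), and Hpgd, which inactivates prostaglandins, rose by 0.45 (adjusted p = 2.67e-05). The cyclooxygenases Ptgs1 and Ptgs2 were not called (log2 fold change -0.17 and 0.04; adjusted p = 0.164 and 0.925). Among the receptors, Ffar2 for short-chain fatty acids and Ptgfr for prostaglandin F2 alpha rose (log2 fold change 0.37 and 0.80; adjusted p = 6.35e-04 and 9.24e-06).

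Oxidant defence and clock genes also moved. In the list of NRF2 targets and glutathione genes 3 of 27 were higher and 6 lower (1 and 12 on the TPM scale), the falls including glutathione peroxidase Gpx1 (log2 fold change -0.42 ± 0.09, adjusted p = 0.00169) and glutathione synthetase Gss (log2 fold change -0.40 ± 0.05, adjusted p = 1.47e-05). Of 19 clock genes 8 were higher and 2 lower (6 and 4 on the TPM scale). Dbp, an output of the clock, had 51.7, 40.3, 46.3 and 56.7 CPM on n3, against 31.3, 20.1, 22.2 and 27.7 CPM on n6 (log2 fold change 0.95 ± 0.16, adjusted p = 3.79e-04), and the repressor Nr1d1 rose by 0.59 (adjusted p = 1.36e-04). The time of day of collection is not stated in the sources at hand, and its part in the clock result was not tested.

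The same diets in KO share no library with those in WT. There, 3972 genes (26% of those tested) were called, 2405 higher (15.8%) and 1567 lower (10.3%). Of the KO libraries on n6, replicate 1 was high in skeletal muscle markers and replicate 2 in B cell markers, and without these 2 libraries 1399 genes were called. That fit kept only 2 KO libraries on n6. In its counts, here and below, the smaller group and the loss of those markers cannot be told apart. In that fit 816 of the 15259 genes tested here were higher in KO and 582 lower. Of the 1499 genes higher in WT, 689 (46%, or 28.6% of the KO list) were also called higher in KO and 37 lower. Without those 2 libraries 264 of the 1499 (17.6%) were higher and 11 lower. Of the 1314 genes lower in WT, 194 (14.8%, or 12.4% of the KO list) were lower in KO and 55 higher, and without the 2 libraries 62 (4.72%) and 11. Across the 15259 genes the log2 fold changes of the genotypes had a Pearson r of 0.0654 and a Spearman rho of 0.265, given as a description, since genes are not independent.

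Sterol and lipogenic genes rose in KO as well, with smaller medians than in WT. Of the lipogenic list 12 of 18 were higher in KO (median 0.28) and of the sterol list 19 of 24 (median 0.34). Without the 2 libraries the counts were 9 and 14. The difference between genotypes was itself tested and was called for 1389 genes (9.1% of those tested), 705 with WT above KO (4.62%) and 684 with WT below (4.48%). The count was 652 without the 2 libraries and 103 with B cell, muscle and epithelium levels as covariates. It was called for 9 lipogenic genes, each with the larger rise in WT, for 8 without the 2 libraries and for 5 with those covariates. Of the sterol list it was called for 7 genes, for 5 without the 2 libraries, and with those covariates for 0 by edgeR, against 8 by DESeq2 without covariates and 7 at an unadjusted p of 0.05 in the covariate fit. Acss2 had the smallest such p among lipogenic genes: in KO it averaged 788 ± 39.96 CPM on n3 and 604 ± 40.9 CPM on n6, a log2 fold change of 0.38 (adjusted p = 0.00227) and a WT minus KO difference of 1.10 ± 0.11 (adjusted p = 1.84e-05), with an adjusted p of 2.51e-04 without the 2 libraries. Insig1 in KO averaged 1125 ± 69.1 CPM on n3 and 861 ± 29.5 CPM on n6, with a WT minus KO difference of 0.93 ± 0.12 (adjusted p = 4.56e-04). KO libraries on n6 were thus above WT libraries on n3 for both genes, and the smaller rise in KO was measured at a higher level.

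That held widely among the leading genes. The KO mean on n6 was above the WT mean on n3 for 12 of the 15 largest rises and below it for 14 of the 15 largest falls. Hspb7 in KO averaged 4.05 ± 0.646 CPM on n3 and 3.93 ± 1.00 CPM on n6 (log2 fold change 0.04 ± 0.29, adjusted p = 0.926), levels near that of WT on n3. Saa3 in KO averaged 2.38 ± 0.355 CPM on n3 and 2.27 ± 0.453 CPM on n6 (log2 fold change 0.06 ± 0.28, adjusted p = 0.886). Leptin, lower on n3 in WT, had in KO 2938 ± 363 CPM on n3 and 2646 ± 169.7 CPM on n6 (log2 fold change 0.15 ± 0.08, adjusted p = 0.147), and the genotype difference was -0.56 ± 0.11 (adjusted p = 0.0043). The knocked-out gene Lpcat3 remained readable in KO at 58.2 ± 3.22 CPM on n3 and 49.0 ± 0.994 CPM on n6.

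Interferon-response genes had a median of -0.20 in KO, with 5 of 26 lower, and the genotype difference was called for 7, but for 1 without the 2 libraries. The KO median without them was -0.08, with 0 of 26 lower by edgeR and 1 lower at an unadjusted p of 0.05. NRF2 and glutathione genes had 13 of 27 higher in KO and 0 lower, with 10 genotype differences, and 3 higher with 3 differences without the 2 libraries. For the mitochondrial list of complex I, all 35 complex I genes were called higher in KO (21 without the 2 libraries), and the genotype difference was called for 0 of them by edgeR, for 0 by DESeq2 and for 1 at an unadjusted p of 0.05.

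**Figure D5:**
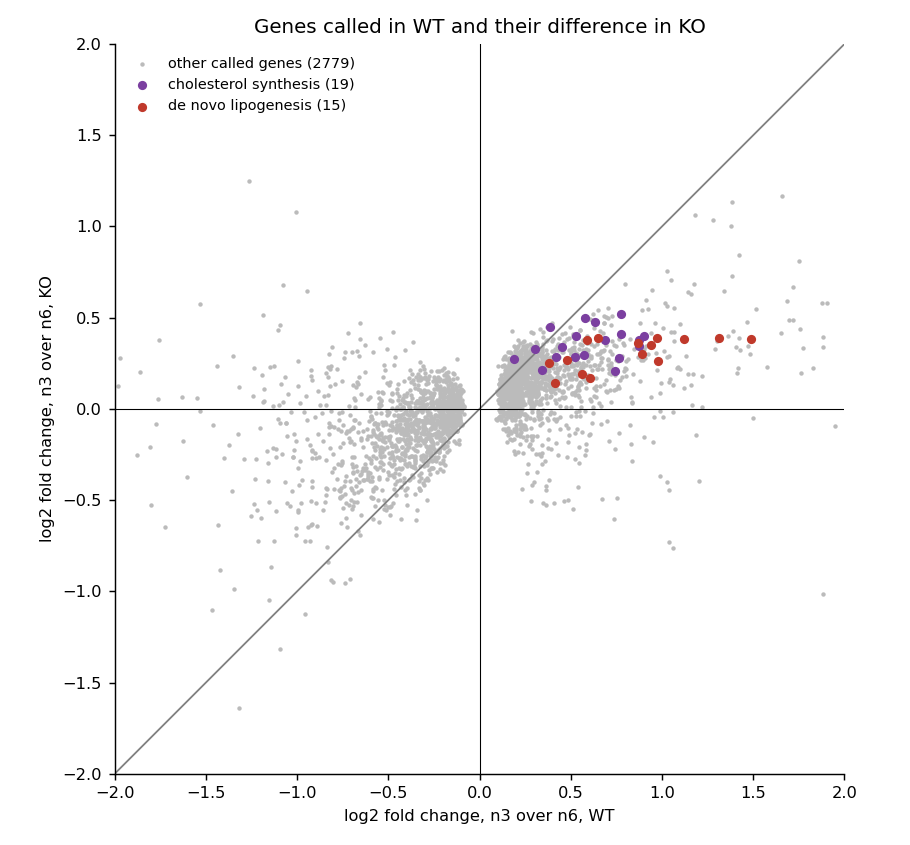
Log2 fold change of n3 over n6 in WT (x axis) against that in KO (y axis) for the 2813 genes called in WT, with lipogenic and sterol genes in colour; the grey line marks equal values and 28 genes fall outside the plotted range of 2 in either direction. Of the 34 coloured genes, which were chosen for being called in WT, 31 lie between 0 and the line.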

How the data were processed

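Bulk RNA-seq libraries of iWAT from 6 groups of 4 were analysed, from 2 deposited tables of 35727 genes: estimated counts and TPM values, both made by the authors with Salmon after fastp 0.23.2 on mm10, per the submitters' processing notes; the annotation and the version of Salmon were not given in the sources used here. Of the deposited estimated counts 33.8% were not whole and were rounded. Genes were kept by edgeR's filterByExpr (minimum count 10, total 15). The main fit was edgeR 4.0.16 (R 4.3.3), quasi-likelihood, robust, TMM, over all 24 libraries with 18 residual degrees of freedom, and p-values were Benjamini-Hochberg adjusted over 15259 genes with a threshold of 0.05. CPM values use TMM-scaled library sizes. Alternatives were DESeq2 1.42.0, RLE scaling, no filter, limma 3.58.1 on log2(TPM + 1) or log2(TPM + 0.1), a replicate block, 3 cell type covariates, only the 8 libraries and leaving out each library.

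Genes were named by a rule: Lpcat3 and Ucp1, the 15 largest called rises and falls whose mean log2 CPM was 1 or more and whose groups did not overlap, the largest differences in CPM, called members of lists, other list members needed to read a list, and the smallest p of the genotype difference. The members and lists were chosen with earlier results of these data known. No 2 libraries of a group agreed within sampling noise. Same-numbered n3 and n6 libraries did not deviate together (Pearson r of deviations 0.0214, -0.00145, -0.00132 and -0.0324), so no block was used. The fits were tested on simulated counts for n3 against n6 in WT, in which 25, 33, 43 and 47 of 50 genes changed by 1.25, 1.5, 2 and 4-fold were called, with 8 of 15059 unchanged genes. Promoters are from RefSeq. A few genes that the rule names are not reported here.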

Additional observations from a re-analysis of the deposited data

Results flagged for a closer look

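A library stood far from the other 3 of its diet for 17 of 324 groups of 4 WT libraries examined, measured in CPM, and chance alone flags about 1 in 20 such groups. The n3 library of replicate 2 was apart for Cfd (847 CPM), Saa3 (18.4 CPM) and Thrsp (199 CPM). The n3 library of replicate 3 was apart for Plin4 (5846 CPM). The n3 library of replicate 4 was apart for Cyp51 (59.9 CPM) and Lss (90.3 CPM). The n6 library of replicate 2 was apart for Fabp4 (9479 CPM), Gpd1 (1204 CPM), Hmgcs1 (465 CPM) and Pla2g5 (9.18 CPM). The n6 library of replicate 4 was apart for Adrb3 (115 CPM), Cidea (7.78 CPM), Cxadr (1.64 CPM), Ear2 (21.5 CPM), Grb14 (61.4 CPM), Mlxipl (55.6 CPM) and Saa3 (24.1 CPM).

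For 72 of the 162 genes tested by name, the difference between n3 and n6 in WT differed from that in KO (edgeR, adjusted p under 0.05 over all genes). The values in parentheses are the WT minus KO difference in log2 fold change. Among lipogenic and sterol genes they were Acss2 (1.10), Insig1 (0.93), Slc25a1 (0.73), Acacb (0.72), Elovl6 (0.59), Scd2 (0.59), Me1 (0.58), Nsdhl (0.53), Fasn (0.51), Cyp51 (0.50), Lss (0.50), Scd1 (0.43) and Fdps (0.36). Other genes with a positive difference of at least 0.9 were Tmem132b (2.95), Elovl3 (1.49), Gsg1l (1.44), Cidea (1.34), Cxadr (1.32), Hephl1 (1.23), Hebp2 (1.23), Rwdd3 (1.22), Parm1 (1.21), Adh6b (1.18), Ncan (1.13), Chchd10 (1.04), Prune2 (0.99), Egln3 (0.96) and Cxcl9 (0.96). Smaller positive differences were those of Plin5 (0.69), Agpat2 (0.65), Ptger3 (0.63), Ptgfr (0.58), Irf1 (0.54), Nrg4 (0.53), Grb14 (0.49), mt-Nd2 (0.49), Lpcat3 (0.47), Fabp5 (0.43), Aldh1a7 (0.39), Hpgd (0.38), Hsd17b12 (0.38), Acsl3 (0.37), Tecr (0.36), Slc36a2 (0.35), Tmem86a (0.34), Hspb8 (0.33), Pcx (0.33) and Cat (0.26). A negative difference was found for Hspb7 (-2.27), Chil3 (-1.70), Saa3 (-1.70), Ptx3 (-1.60), Folh1 (-1.46), Pla2g5 (-1.37), Ear2 (-1.10), S100a8 (-1.04), Gabrr2 (-1.02), Phgdh (-0.65), Aldh3b1 (-0.64), Ccl2 (-0.63), Lpgat1 (-0.56), Lep (-0.56), H2-DMa (-0.49), Ckb (-0.48), Col6a2 (-0.46), Mthfd2 (-0.46), Tgfb3 (-0.45), Cfb (-0.45), Gpx1 (-0.43), Cers6 (-0.34), Gss (-0.34) and Pcna (-0.31). Of the 72, 61 were called without the 2 marker-high KO libraries, 72 by DESeq2, 61 on the log2(TPM + 1) scale and 16 with cell type covariates.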

How the results depend on the processing

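The count of genes called between n3 and n6 in WT was 2817 with RLE scaling, 2384 without a filter, 3160 by DESeq2, 2432 with cell type covariates and 3126 with only the 8 libraries, and 1964 to 3175 with 1 library left out (2813 in the report). A threshold of at least 1.5-fold left 580 genes, 265 higher and 315 lower. Higher calls numbered 577, 587 and 561 with log2(TPM + 1), log2(TPM + 0.1) and log2(TPM + 1) without a filter, and lower calls 3324, 3124 and 2934; the cause of the shift was not tested. Leaving out 1 library gave 1121 to 1675 higher and 843 to 1500 lower calls, the fewest of each without n6 replicate 1. The genotype difference was called for 868, 833 and 644 genes on those 3 TPM scales, 103 with cell type covariates, 652 without the 2 KO libraries, and 730 to 1759 with 1 WT library left out. In KO, 259 genes were called with cell type covariates and 1399 without the 2 libraries, an alternative added after seeing the data.

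With the replicate number as a block, 2831 genes were called in WT, 1338 for the genotype difference and 3929 in KO; the numbers do not pair the libraries. Of the 162 genes tested by name, none called here changed sign under any alternative for n3 against n6 in WT, and the calls that changed were at most 12 of 162, on the TPM scales. The planned fit without marker-high libraries was not run, since none of the 8 passed that level. At 46.3 to 62.1 M counts a library, genes near 0 such as Ucp1 have counting error beside the spread between libraries.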

Other observations

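Some lists not described above also held called members in WT. In glucose use 9 of 25 genes were higher on n3 and 1 lower, and 3 and 7 on the TPM scale. Hexokinase Hk2 and glycerol phosphate dehydrogenase Gpd1 rose (log2 fold change 0.39 and 0.36, adjusted p = 6.48e-04 and 0.00513), and the transporter Slc2a1 fell (log2 fold change -0.26 ± 0.05, adjusted p = 0.00153). The hypoxia list had 8 of 20 higher and 3 lower (2 and 5 on the TPM scale), with the glycolytic regulator Pfkfb3 at 1112 ± 56.4 CPM on n3 and 769 ± 73.8 CPM on n6 (log2 fold change 0.53 ± 0.08, adjusted p = 4.67e-05). Genes of the amino acid response split, with 3 of 20 higher and 5 lower (2 and 8 on the TPM scale). Asparagine synthetase Asns rose (log2 fold change 0.34 ± 0.07, adjusted p = 0.00172), while Phgdh, which opens serine synthesis, the folate enzyme Mthfd2 and the stress factor Atf3 fell (log2 fold change -0.56, -0.43 and -0.85; adjusted p = 2.32e-04, 5.74e-04 and 0.00111).

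Among transporters and channels of adipocytes, the amino acid transporter Slc36a2 had 376, 361, 375 and 358 CPM on n3, against 237, 217, 239 and 234 CPM on n6 (log2 fold change 0.67 ± 0.06, adjusted p = 1.62e-07), and the potassium channel Kcnk3 rose as well (log2 fold change 0.44 ± 0.06, adjusted p = 8.84e-06). The chaperone Hspb8 moved opposite to Hspb7, at 122 ± 9.26 CPM on n3 and 82.6 ± 3.65 CPM on n6 (log2 fold change 0.56 ± 0.06, adjusted p = 7.77e-07). Pcyt2, of phosphatidylethanolamine synthesis, rose (log2 fold change 0.42 ± 0.05, adjusted p = 4.22e-06), and the ceramide synthase Cers6 fell (log2 fold change -0.40 ± 0.06, adjusted p = 1.46e-04). Of the aldehyde and alcohol dehydrogenases, Aldh1a7 and Adh1 rose (log2 fold change 0.67 and 0.41; adjusted p = 8.18e-08 and 1.86e-04) and Aldh3b1 fell (log2 fold change -0.76 ± 0.10, adjusted p = 1.74e-05); close paralogues share reads with the first, so its level is uncertain. Inhbb, an activin subunit made by adipocytes, rose (log2 fold change 0.78 ± 0.12, adjusted p = 1.02e-04), Tgfb3 fell (log2 fold change -0.52 ± 0.06, adjusted p = 4.43e-06). The metallothionein Mt2 fell too (log2 fold change -1.16 ± 0.29, adjusted p = 0.00857), and the small proteoglycan Fmod rose (log2 fold change 0.57 ± 0.10, adjusted p = 5.03e-04).

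The ratio of estimated count to TPM of a gene, set relative to the median gene of the library, follows the mean effective length of the transcripts counted. It was compared on the log2 scale with limma after seeing the data, for 13165 genes with at least 20 counts in every library. It differed between n3 and n6 in WT for 4 genes, with 765 at an unadjusted p of 0.05, for 4 to 6 genes with 1 WT library left out, and for 0 of 13581 genes (864 unadjusted) when only the 8 libraries were fitted. In relative units, Acacb had 2.90, 3.05, 2.87 and 2.89 on n3, against 2.44, 2.54, 2.54 and 2.51 on n6 (log2 difference 0.22, adjusted p = 7.59e-07). Prune2 averaged 3.16 ± 0.128 on n3 and 2.37 ± 0.231 on n6 (log2 difference 0.42, adjusted p = 4.46e-04), Pcx 1.46 ± 0.00762 on n3 and 1.54 ± 0.0177 on n6 (log2 difference -0.08, adjusted p = 4.46e-04), and Acly had a log2 difference of 0.06 (adjusted p = 0.00226). All 4 genes were also called higher on n3 by count.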
